A study of Homo sapiens with 8 samples.

Results

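The 10 genes described here encode immediate early transcription factors: FOS, FOSL1, FOSL2, JUN, JUNB, EGR1, ATF3, IER2, MYC and KLF6. They were chosen by name and not by a measured value from 58735 genes in the transcript tables, but with earlier results of these data known. All 10 were among the 18242 genes with enough counts to be tested. BEAS-2B, an established line of human bronchial epithelial cells, was exposed at an air-liquid interface to clean air (CA) or to 1 ppm formaldehyde (FA) for 2 h, and RNA was taken after 6 h of recovery. The RNA depleted of ribosomal RNA was split into input (IN) and a fraction pulled down (IP) with an antibody against 8-oxo-7,8-dihydroguanosine (8-oxoG), an oxidized form of guanosine. This gave 4 groups of 2 libraries, CA_IN, FA_IN, CA_IP and FA_IP, with replicates numbered 1 and 3. All cultures were of 1 cell line, so that the spread between replicates is a spread between cultures, and the input and IP libraries of 1 number and treatment came from 1 RNA pool.

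Immediate early genes are transcribed within minutes of a growth or stress signal from regulators that are already present in the cell, and their mRNAs are usually short-lived. FOS, FOSL1, FOSL2, JUN, JUNB and ATF3 are basic leucine zipper proteins that form the dimers known as AP-1 or bind related sites. EGR1 and KLF6 are zinc finger factors, MYC binds E-boxes together with MAX, and IER2 is a small nuclear protein of the same early response. In airway epithelium, the early response follows growth factors, smoke and oxidants. Since the RNA was taken after recovery, the libraries show levels hours after the exposure had ended.

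The rapid decay of such mRNAs is linked to AUUUA pentamers in the 3′ untranslated region (3′UTR). Written as DNA, ATTTA was found in the 3′UTR of 9 of the 10 members and in 72.1% of 13169 tested mRNAs. The longer TTATTTATT was found in the 3′UTRs of FOS and FOSL2, 2 of the 10, against 9.44% of all these mRNAs. Both motifs were searched on the mRNA strand only, and every TTATTTATT also holds an ATTTA. The following sites were read from the GENCODE 44 transcripts on GRCh38 and are shown because this element is the one linked to the decay of such mRNAs. Each is a 29-base window of the 3′UTR with the most pentamers, centred on those of the first such window. Capitals mark ATTTA.
FOS, chr14:75282058-75282086, plus strand, exon 4 of 4: tgtgtttttaATTTATTTAttaagatgga
FOSL1, chr11:65892272-65892300, minus strand, exon 4 of 4: agggcagctgctATTTAttttcctaaaga
FOSL2, chr2:28416349-28416377, plus strand, exon 4 of 4: attgacATTTAttttattATTTAttttaa
JUN, chr1:58781336-58781364, minus strand, exon 1 of 1: tccagaaaggatATTTAagaaaatacaat
JUNB, chr19:12793060-12793088, plus strand, exon 1 of 1: atatatttgtgtATTTAacagggagggga
EGR1, chr5:138469064-138469092, plus strand, exon 2 of 2: ctgaaaatgtaaATTTAtaaatatattca
ATF3, chr1:212619765-212619793, plus strand, exon 4 of 4: ctcaactccaggATTTAggccttaacaca
KLF6, chr10:3778791-3778819, minus strand, exon 4 of 4: tATTTAcaaatataacacaacaATTTAac
FOS held 5 pentamers in 806 bases of 3′UTR, a density of 6.20 per kb that lay at the 95.1 percentile of all mRNAs. FOSL2 held 9, MYC and KLF6 6 each, JUN and ATF3 3 each, JUNB 2, and FOSL1 and EGR1 1 each. IER2 held none in 1053 bases. The percentiles of the other densities were 84.5 for JUNB, 72.2 for MYC, 63.7 for ATF3, 61.3 for JUN, 52.9 for FOSL2, 50.2 for KLF6, 41.1 for FOSL1 and 34.9 for EGR1, so that the members ranged over most of the scale.

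The antibody recognizes oxidized guanosine, and the members differ in how much guanosine they hold. Guanine made up 33.3% of the IER2 mRNA, 31.2% of JUNB and 29.4% of JUN, against a median of 24.7% over the 13169 mRNAs. It made up 27.3% of FOSL2, 25.9% of ATF3, 25.0% of FOS, 24.8% of FOSL1, 23.4% of KLF6, 23.3% of EGR1 and 23.0% of MYC. The MYC share and its pentamers above were read from a transcript of 3721 bases, longer than the 2366 bases counted. They were not determined on the counted transcript. The coding stretches below, the most guanine-rich 60 bases within 1 exon, are shown for the 5 members at either end of the pull-down comparison given later, with each guanine in capitals.
IER2, chr19:13153260-13153319, plus strand, exon 2 of 2: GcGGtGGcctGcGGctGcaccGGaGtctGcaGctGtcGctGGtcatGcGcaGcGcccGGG
JUNB, chr19:12792109-12792168, plus strand, exon 1 of 1: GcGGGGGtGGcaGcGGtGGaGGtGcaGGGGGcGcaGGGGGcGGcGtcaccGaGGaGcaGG
JUN, chr1:58782598-58782657, minus strand, exon 1 of 1: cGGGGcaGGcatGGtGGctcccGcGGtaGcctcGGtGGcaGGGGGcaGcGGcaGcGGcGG
EGR1, chr5:138465929-138465988, plus strand, exon 1 of 2: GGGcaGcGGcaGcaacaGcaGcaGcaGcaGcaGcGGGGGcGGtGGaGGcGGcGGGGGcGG
KLF6, chr10:3781775-3781834, minus strand, exon 2 of 4: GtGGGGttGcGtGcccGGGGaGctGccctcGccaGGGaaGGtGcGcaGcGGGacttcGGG
JUNB held 36 guanines in its stretch, EGR1 33, JUN 31, KLF6 29 and IER2 25. EGR1 thus had the second richest stretch of these 5 with a guanine share over the whole mRNA below the median, and IER2 the highest share over the whole mRNA with the poorest stretch.

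The input libraries held 26.2 to 45.1 M expected counts and the IP libraries 16.9 to 23.7 M. The members held from 492 to 6478 expected counts each per library and together 0.0554% to 0.0799% of a library. All 8 epithelial markers, among them KRT8, KRT18 and CDH1, were above 1 CPM (the counts-per-million scale) in every library, with a sum of 2594 to 4407 CPM. The 4 leukocyte markers summed to 4.34 to 7.43 CPM, the 4 endothelial markers to 1.33 to 2.28 CPM and the 6 fibroblast markers to 8.04 to 11.9 CPM. Counts were normalized by the TMM method and compared by edgeR's quasi-likelihood test over all genes, with Benjamini-Hochberg adjusted p-values and a limit of 0.05. IER2, JUNB and MYC share exon bases with annotated genes on the opposite strand (HOOK2 for JUNB and CASC11 for MYC), and reads were counted without regard to strand, so reads from the shared bases cannot be told apart. Bulk RNA cannot tell fewer cells of a kind from less RNA per cell.

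In clean air, all 10 mRNAs were present at moderate to high levels. On the scale of CPM per kb of mRNA in CA_IN, JUN stood at 48.5 ± 5.23 and JUNB at 46.4 ± 4.54 (SD, n = 2). MYC followed at 41.3 ± 1.37 and FOSL1 at 39.3 ± 5.30 (SD, n = 2). The ranges of JUN and JUNB overlapped, as did those of MYC and FOSL1, while JUNB lay above MYC in both libraries and FOSL1 above IER2. IER2 stood at 22.1 ± 0.554, FOS at 18.7 ± 6.68, ATF3 at 15.4 ± 4.02 and EGR1 at 12.4 ± 3.38 CPM per kb (SD, n = 2). KLF6 and FOSL2 were lowest, at 10.7 ± 0.874 and 10.2 ± 0.586 CPM per kb (SD, n = 2). From IER2 down, no member was apart from the next in this order. These levels lay between the 68.8 and the 90.9 percentile of the tested genes.

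**Figure D1:**
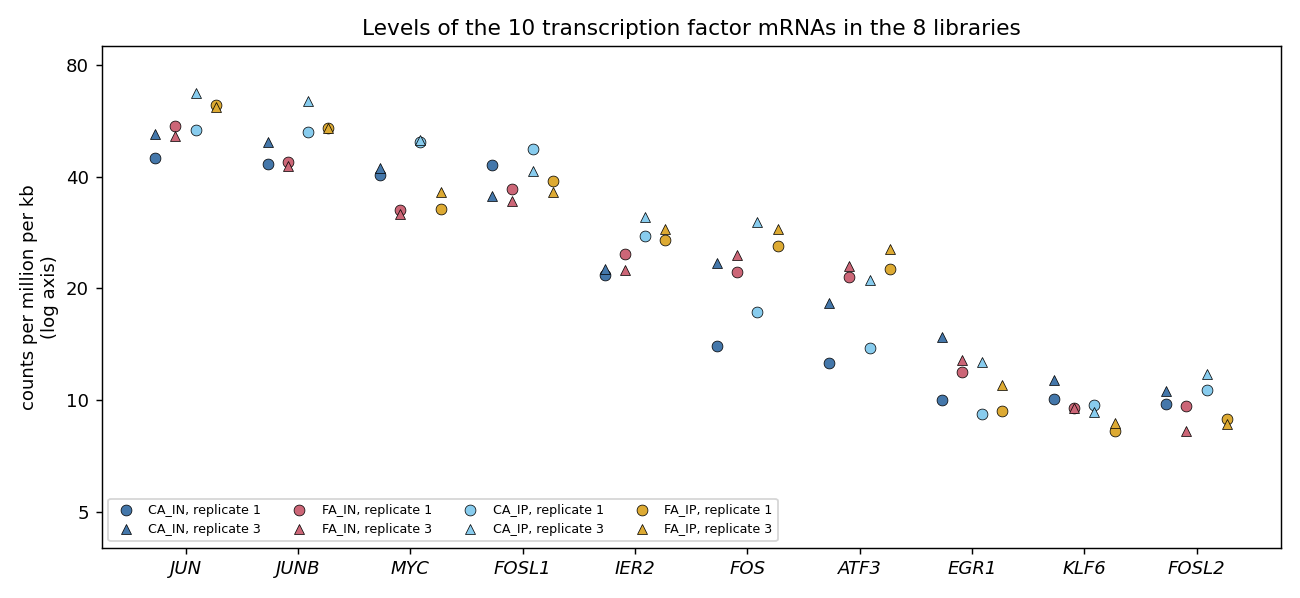
Level of each mRNA in each library, in CPM per kb on a log axis, with circles for replicate 1, triangles for replicate 3 and colours for the 4 groups; genes are ordered by their CA_IN mean. JUN and JUNB are highest, FOS in CA_IN lies at 13.9 and 23.4 in its 2 libraries, and MYC in both FA groups lies below both CA groups.

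The first comparison asks what formaldehyde did to the abundance of these mRNAs in input RNA. None of the 10 members passed the adjusted limit between FA_IN and CA_IN by edgeR, and 0 passed by DESeq2 on all 8 libraries. Over all genes 0.00548% were called by edgeR, which is 1 gene, and 0.0164% by DESeq2. With the replicate number as a block, whose meaning across the treatments is not given in the labels, edgeR called ATF3 (adjusted p = 0.0366) and MYC (adjusted p = 0.0414), against 1.41% of all genes. At an unadjusted p under 0.05 there were 2 members, ATF3 in the higher direction and MYC in the lower, against 1.21% and 2.14% of all genes. Adjusted p was 0.945 for every member except EGR1, at 1.00 by edgeR's test. The fitted log2 differences ran from -0.33 to 0.53, with 4 members above 0, 6 below, and a median of -0.05 against 0.02 over all genes. In 3 members, MYC, FOSL2 and KLF6, both FA_IN libraries lay below both CA_IN libraries, and in ATF3 both lay above. Such separation was found in the lower direction for 15.9% and in the higher direction for 18.1% of all genes.

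ATF3, a stress-induced factor of the ATF/CREB family that is switched on by amino acid shortage and DNA damage, had the highest fitted difference. Its level was 20.1 and 29.7 CPM in CA_IN (replicates 1 and 3) and 35.1 and 36.8 CPM in FA_IN. The FA_IN libraries lay close together and above both CA_IN libraries, and CA_IN replicate 3 lay nearer to them than to CA_IN replicate 1. The log2 difference was 0.53 with an SE of 0.21 and a 95% interval from 0.04 to 1.02 (edgeR unadjusted p = 0.0361). Without CA_IN replicate 1 it was 0.28, and without CA_IN replicate 3 it was 0.83.

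MYC, a driver of growth and ribosome synthesis, had the lowest. Its level was 78.3 and 83.5 CPM in CA_IN and 64.5 and 63.9 CPM in FA_IN, with little spread within either group. The log2 difference was -0.33 with an SE of 0.085 and a 95% interval from -0.53 to -0.14 (edgeR unadjusted p = 0.00369), a level 20.7% lower. It lay between -0.39 and -0.30 under all 19 alternatives. In the IP libraries MYC stood at 89.9 and 90.5 CPM in CA_IP and at 62.4 and 66.6 CPM in FA_IP. The IP libraries thus showed the same order as the input of the same RNA pools, with a log2 difference of -0.53 in replicate 1 and -0.44 in replicate 3, which was not tested.

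FOS, the partner of JUN in the classical AP-1 dimer, had the widest spread. It stood at 25.3 and 42.4 CPM in CA_IN and at 39.7 and 44.5 CPM in FA_IN. One clean air library alone lay apart from the other 3. The log2 difference was 0.32 with an SE of 0.27, and it was -0.01 without CA_IN replicate 1 and 0.73 without CA_IN replicate 3. The CA_IP library of the same pool was low as well, with 31.3 CPM against 51.7 CPM in replicate 3. EGR1, a growth factor-induced zinc finger factor, showed the same low library: 29.1 and 43.1 CPM in CA_IN and 34.7 and 37.3 CPM in FA_IN. Its FA_IN values lay within the CA_IN range, and the log2 difference was -0.0042 with a 95% interval from -0.48 to 0.47.

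The remaining AP-1 members moved little. JUN stood at 148.8 and 173.4 CPM in CA_IN and 182.0 and 171.2 CPM in FA_IN, a log2 difference of 0.13 with an SE of 0.12. JUNB, which often opposes JUN in the AP-1 dimer, stood at 69.3 and 79.6 CPM in CA_IN and 70.3 and 68.2 CPM in FA_IN, a log2 difference of -0.10 with an SE of 0.11. In both genes the ranges overlapped. FOSL1 (FRA-1), found in migrating epithelium, stood at 59.7 and 48.3 CPM in CA_IN and 50.9 and 45.8 CPM in FA_IN, a log2 difference of -0.16 with an SE of 0.13. FOSL2 (FRA-2) stood at 61.4 and 67.4 CPM in CA_IN and 60.2 and 51.4 CPM in FA_IN, a log2 difference of -0.21 with an SE of 0.11. FOSL1 overlapped between the groups, and FOSL2 was apart by a narrow gap.

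IER2 and KLF6 completed the set. IER2 stood at 42.9 and 44.5 CPM in CA_IN and 49.3 and 43.9 CPM in FA_IN, a log2 difference of 0.09 with an SE of 0.11. KLF6, a widely expressed zinc finger factor that restrains growth, stood at 39.8 and 42.6 CPM in CA_IN and 37.9 and 37.6 CPM in FA_IN, a log2 difference of -0.13 with an SE of 0.10. The IER2 groups overlapped, and the KLF6 groups did not.

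Compared replicate by replicate, the members did not keep 1 direction. In replicate 1, 6 members were higher in FA_IN and 4 lower, with a median log2 difference of 0.11. In replicate 3, 2 were higher and 8 lower, with a median of -0.13. FOS and ATF3 were above 0 in both replicates, and FOSL1, FOSL2, MYC and KLF6 below 0 in both. JUN, JUNB, EGR1 and IER2 were above 0 in replicate 1 and, for JUN at -0.02 and IER2 at -0.02, just below it in replicate 3. JUNB and EGR1 were at -0.22 and -0.21 there.

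**Figure D2:**
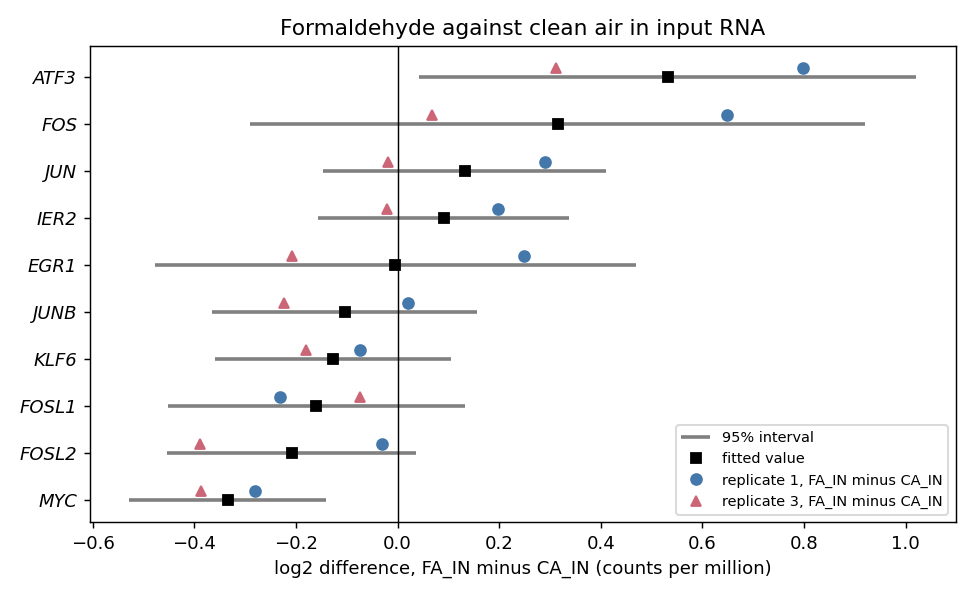
Log2 difference between FA_IN and CA_IN for each member, with black squares for the value fitted by edgeR, grey bars for its 95% interval, and circles and triangles for replicates 1 and 3. ATF3 is highest at 0.53 and MYC lowest at -0.33, and in 8 of the 10 members the interval spans 0.

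Genes around these factors were read in the same comparison, and none of their lists held a called gene by edgeR. Of 9 tested AP-1 partners outside the members, 5 were above 0 and 4 below, from JDP2 at -0.35 to FOSB at 0.59. FOSB, the closest relative of FOS, stood at 6.68 and 12.9 CPM in CA_IN and 12.8 and 16.5 CPM in FA_IN, so that CA_IN replicate 1 was low in it too. Of 24 other immediate early transcription factors, 12 were above 0 and 12 below, with IRF1 lowest at -0.33 and EGR2 highest at 0.69, the latter at only 0.666 to 1.17 CPM in input. Of 25 immediate early genes that are not transcription factors, 9 were above 0 and 16 below, from the signalling inhibitor SPRED1 at -0.38 to the DNA damage gene GADD45A at 0.42 on the log2 scale.

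The dual-specificity phosphatases, which switch off the MAP kinases that induce the members and are themselves early targets of those kinases, lay mostly on the lower side. Of 10 tested, 9 were below 0 and 1 above, with a median log2 difference of -0.28 against 0.02 over all genes, and 0 passed the adjusted limit. DUSP7, which acts on ERK, stood at 34.1 and 28.8 CPM in CA_IN and at 22.3 and 17.8 CPM in FA_IN. Its groups did not overlap, and its log2 difference was -0.65 with an SE of 0.15 (edgeR unadjusted p = 0.00213, adjusted p = 0.945). DUSP8 was highest, at 0.11 with an SE of 0.39, and stood at only 0.33 to 0.48 CPM in input.

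Upstream kinases and factors, 28 genes, had a median log2 difference of 0.03, with 17 above 0 and 11 below, from the JNK kinase MAP2K4 at -0.46 to RPS6KA5 at 0.32. The 25 proteins that bind AU-rich elements or remove poly(A) had a median of 0.01, from the decapping protein DCP1A at -0.38 to CNOT3 at 0.14. Of 12 tested MYC partners and antagonists 6 were above 0 and 6 below, from FBXW7, which marks MYC for degradation, at -0.35 to the MYC antagonist MNT at 0.20. The 12 glycolysis mRNAs, taken as long-lived mRNAs for contrast, had 11 above 0 with a median of 0.10 and a range from HK2 at -0.12 to PFKP at 0.17. Epithelial markers ran from CDH1 at -0.07 to KRT19 at 0.31, with 7 of 8 above 0. Of the markers of other cells that could be tested, COL1A1 and PDGFRA of fibroblasts were at 0.36 and -0.34. KDR and PECAM1 of endothelium were at 0.58 and 0.06, and CD14 of leukocytes at 0.24. PDGFRA, PECAM1 and KDR were near the floor, at 0.083 to 0.23, 0.30 to 0.71 and 0.67 to 1.10 CPM in input.

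**Figure D3:**
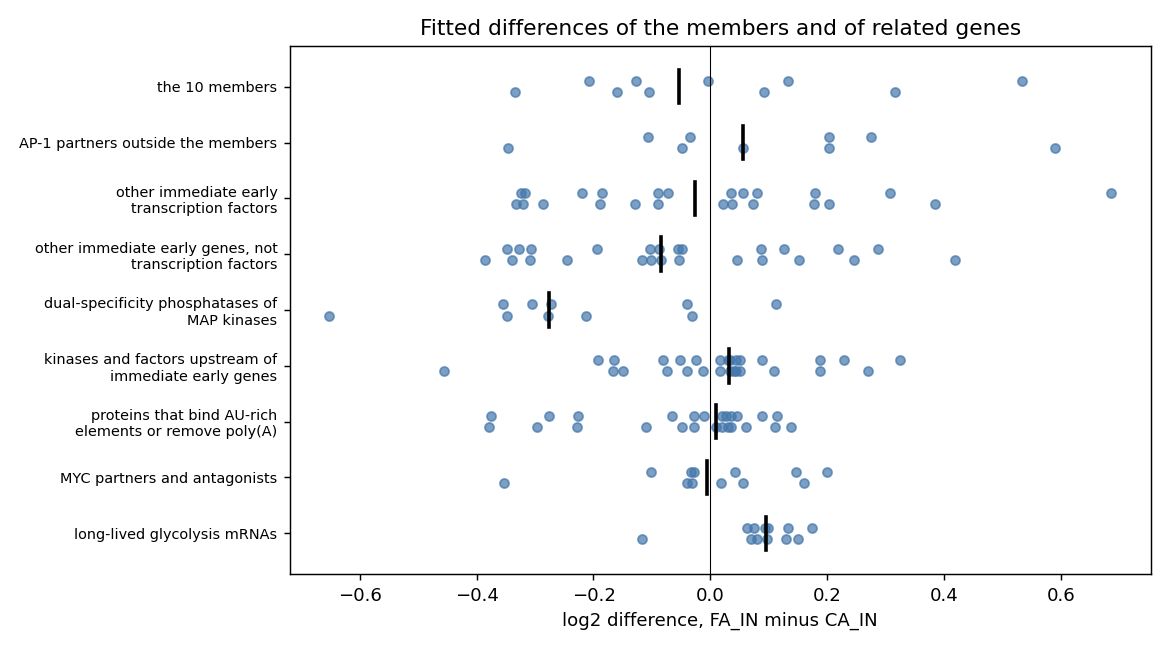
Fitted log2 difference between FA_IN and CA_IN (horizontal axis) for each tested gene of the members and of 8 related lists, 1 point per gene, with a black bar at the median of each list. The phosphatases have the lowest median, at -0.28, and the members' median is -0.05.

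The second comparison asks how much of each mRNA the 8-oxoG antibody recovered relative to input. None of the members was called in clean air, where edgeR called 1.91% of all genes, or with formaldehyde, where it called 1.5%. Over both treatments, 0 members and 5.19% of all genes were called. At an unadjusted p under 0.05 there were 3 members in clean air, 2 with formaldehyde and 4 over both treatments, against 12.6%, 9.1% and 17.8% of all genes. DESeq2 on all 8 libraries called 0 members in either treatment and 2 over both, JUNB and IER2, against 2.77%, 2.13% and 6.29% of all genes. Because input and IP of 1 number were split from 1 RNA pool, the pool is also a natural block. With the pool as a block, edgeR called 4 members in clean air, 3 with formaldehyde and 6 over both treatments, against 17.4%, 10.1% and 25.1% of all genes. The fitted log2 differences hardly changed with the block, and their SEs became smaller.

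JUNB had the highest value over both treatments. It stood at 69.3 and 79.6 CPM in CA_IN and 84.5 and 103 CPM in CA_IP, and at 70.3 and 68.2 CPM in FA_IN and 86.1 and 87.1 CPM in FA_IP. Every IP library lay above every input library. The log2 difference over both treatments was 0.33 with an SE of 0.081 (edgeR adjusted p = 0.0556). With the RNA pool as a block it was 0.33 with an SE of 0.048 (edgeR adjusted p = 2.12e-05), and JUNB passed in each treatment as well. In clean air its value of 0.33 was 0.18 without CA_IP replicate 3.

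IER2 was next. It stood at 53.7 and 60.8 CPM in CA_IP and 52.6 and 56.9 CPM in FA_IP, all above the input values given before. The log2 difference was 0.31 with an SE of 0.077 (edgeR adjusted p = 0.0555), and 0.31 with an SE of 0.056 with the pool as a block (edgeR adjusted p = 0.000186). In clean air it was 0.39 and with formaldehyde 0.23, and with the block the first passed and the second had an edgeR adjusted p of 0.0605.

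JUN stood at 176.9 and 224.3 CPM in CA_IP and 205.9 and 205.0 CPM in FA_IP. In each treatment both IP libraries lay above both input libraries. The log2 difference over both treatments was 0.27 with an SE of 0.087 (edgeR adjusted p = 0.135), and with the block its SE was 0.045 (edgeR adjusted p = 0.000113). JUN passed with the block in each treatment. Without CA_IP replicate 3 the value over both treatments was 0.18. In clean air it was 0.32, and 0.21 without CA_IN replicate 1, 0.48 without CA_IP replicate 1 and 0.14 without CA_IP replicate 3.

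FOS stood at 31.3 and 51.7 CPM in CA_IP and 47.0 and 50.3 CPM in FA_IP. The low replicate 1 was shared by both clean air fractions, and within each pool the IP library was the higher. The log2 differences within the pools were 0.31 and 0.28 in clean air and 0.24 and 0.18 with formaldehyde. Over both treatments the fitted value was 0.25 with an SE of 0.19 (edgeR adjusted p = 0.567), and with the block the SE was 0.053 (edgeR adjusted p = 0.000948). With the block FOS passed in clean air (edgeR adjusted p = 0.00745) and not with formaldehyde (edgeR adjusted p = 0.0812). In clean air its fitted value was 0.29, and it turned to -0.035 without CA_IN replicate 1 and to -0.11 without CA_IP replicate 3. The value over both treatments was 0.086 without CA_IN replicate 1, 0.46 without CA_IN replicate 3, 0.41 without CA_IP replicate 1 and 0.049 without CA_IP replicate 3.

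EGR1 and KLF6 lay on the other side. EGR1 stood at 26.8 and 37.1 CPM in CA_IP and 27.2 and 32.2 CPM in FA_IP, and KLF6 at 36.8 and 33.7 CPM in CA_IP and 31.1 and 32.9 CPM in FA_IP. In each of the 4 pools the IP library was the lower for both genes. Over both treatments the log2 difference was -0.23 with an SE of 0.15 for EGR1 (edgeR adjusted p = 0.500) and -0.23 with an SE of 0.073 for KLF6 (edgeR adjusted p = 0.1248). With the block the edgeR adjusted p was 0.00446 for EGR1 and 0.00394 for KLF6. EGR1 passed with the block with formaldehyde, and KLF6 in neither treatment alone. The EGR1 value over both treatments was -0.35 without CA_IN replicate 1, -0.070 without CA_IN replicate 3, -0.12 without CA_IP replicate 1 and -0.35 without CA_IP replicate 3. With formaldehyde it was -0.27, and -0.16 without FA_IP replicate 1.

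With TMM, the other 4 members passed in no comparison of IP with input, with or without the block. With total library size in place of TMM, MYC passed over both treatments (edgeR adjusted p = 0.0266), where 16.7% of all genes were called. ATF3 stood at 22.6 and 33.1 CPM in CA_IP and 35.8 and 40.9 CPM in FA_IP, a log2 difference over both treatments of 0.13 with an SE of 0.15. FOSL1 stood at 64.7 and 56.8 CPM in CA_IP and 52.9 and 49.5 CPM in FA_IP, a log2 difference of 0.13 with an SE of 0.091. FOSL2 stood at 65.9 and 71.2 CPM in CA_IP and 54.6 and 52.5 CPM in FA_IP, a log2 difference of 0.02 with an SE of 0.077. For MYC the log2 difference was 0.16 in clean air and 0.0083 with formaldehyde, and 0.08 with an SE of 0.060 over both. The ATF3 and FOSL1 ranges overlapped those of input in both treatments.

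In clean air JUN, JUNB, IER2 and MYC were separated upward from input and KLF6 downward, 4 and 1 of 10 against 22.9% and 18.1% of all genes. With formaldehyde FOS, JUN, JUNB and IER2 were separated upward and EGR1 and KLF6 downward, 4 and 2 of 10 against 18.9% and 18.5%. The members' median log2 difference was 0.17 in clean air and 0.09 with formaldehyde, where all genes had medians of 0.02 and 0.00. When total library size replaced TMM, the median of all genes over both treatments was 0.16, a shift above 0.1, and the members' median was 0.29, so that directions near 0 depend on the scale. On that scale FOSL2 with formaldehyde turned from -0.06 to 0.11.

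Over the members, the order in the pull-down ran with guanine share. Spearman's rho between guanine share and the log2 difference over both treatments was 0.78 over the 10 members, and 0.64 over the 13169 mRNAs, a description across genes of the same libraries, which are not independent replicates. It was 0.77 in clean air and 0.79 with formaldehyde for the members. The 1867 mRNAs with 30% guanine or more had a median log2 difference of 0.26, and the middle 50% of them lay between 0.16 and 0.35, which holds both JUNB and IER2. JUN lay within the middle 50% of its bin, 0.08 to 0.28, as well. EGR1 and KLF6 lay below the middle 50% of the 2249 mRNAs with 22% to 24% guanine, which ran from -0.11 to 0.06, and MYC lay above it. FOS lay above the middle 50% of its bin, -0.06 to 0.13, and FOSL2 below that of its own, 0.03 to 0.21. The log2 difference over both treatments also ran against mRNA length, with a rho of -0.58 over the members and -0.22 over all mRNAs. Guanine share and mRNA length were themselves related, with a rho of -0.34 over all mRNAs and -0.24 over the members. The part of each in the pull-down was not tested.

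**Figure D4:**
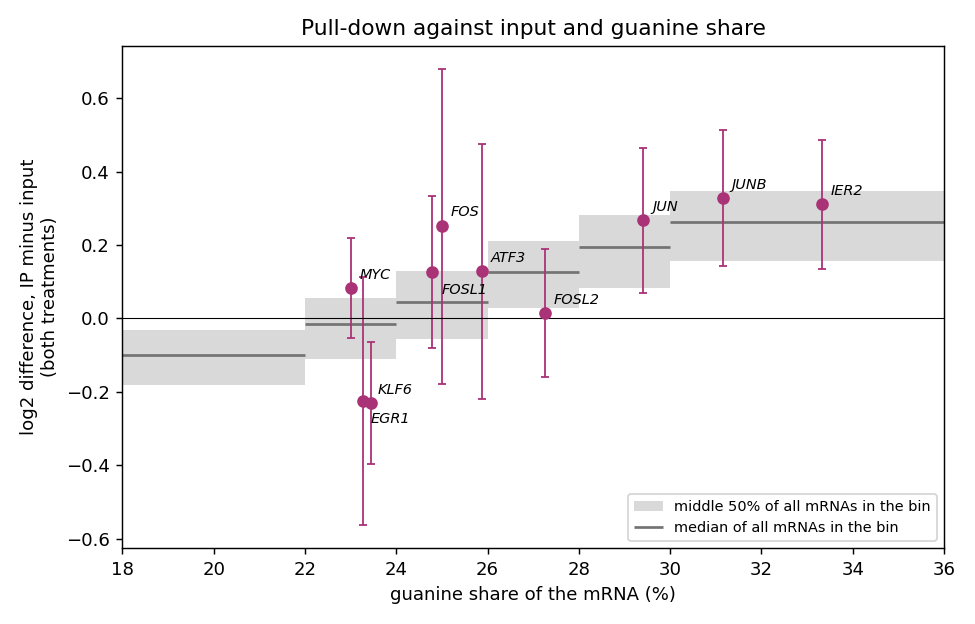
Log2 difference between IP and input over both treatments (vertical axis) against the guanine share of the mRNA in percent (horizontal axis), with points and 95% intervals for the members and, for all 13169 mRNAs in 6 bins of guanine share, grey boxes for the middle 50% and a line for the median. The bins' medians climb from -0.10 to 0.26, and IER2, JUNB and JUN lie in the upper bins.

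The third comparison asks whether formaldehyde changed the recovery by the antibody, as the difference between FA_IP against FA_IN and CA_IP against CA_IN. None of the members was called by edgeR, 0% of all genes were called, and 0 members had an unadjusted p under 0.05, against 1.07% of all genes. DESeq2 on all 8 libraries and edgeR with the pool as a block called 0 members as well, against 0.0164% and 0.137% of all genes. The values lay between -0.15 for IER2 and -0.01 for KLF6 on the log2 scale, all 10 below 0, with a median of -0.09 against -0.02 over all genes. The widest 95% interval was that of FOS, from -0.94 to 0.78, and that of MYC ran from -0.42 to 0.13. The sign was not stable: JUNB and KLF6 were above 0 under 10 of 18 alternatives each, and the median was 0.02 without CA_IN replicate 1 and 0.01 without CA_IP replicate 3. FOSL2, IER2 and MYC were below 0 under all 18.

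Around the members, some related genes were called in the pull-down. The named ones are given over both treatments, where edgeR called 5.19% of all genes. PPP1R15A (GADD34), an early stress gene that restores translation, was higher in IP, with a log2 difference of 0.32 and an SE of 0.073 (edgeR adjusted p = 0.0428), the only call among 25 early genes that are not transcription factors. Among 28 upstream genes MAP2K2 was higher, at 0.37 with an SE of 0.078 (edgeR adjusted p = 0.0293). ZFP36L1, which binds AU-rich elements and speeds decay, was lower, at -0.34 with an SE of 0.079 (edgeR adjusted p = 0.0439), the only call among 25 such genes. Of the 12 glycolysis mRNAs TPI1 and PKM were higher, at 0.37 and 0.32, and of the 8 epithelial markers KRT8 and KRT18, at 0.40 and 0.39. KRT8 was also called in clean air alone, at 0.41 (edgeR adjusted p = 0.0347), where 1.91% of all genes were called.

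AP-1 partners outside the members held 0 calls, with JUND highest at 0.30 and ATF7 lowest at -0.35. The phosphatases held 0 calls, from DUSP8 at -0.22 to DUSP7 at 0.19, and 7 of 10 were above 0. Other immediate early transcription factors held 0 calls, from KLF2 at -0.58 to EGR2 at 0.27. MYC partners held 0, from MNT at -0.14 to MXD4 at 0.35. DUSP8, KLF2 and EGR2 were near the floor, at 0.28 to 0.48, 0.25 to 0.92 and 0.67 to 1.36 CPM over the 8 libraries.

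The deposited tables count isoforms, and the members' 52 isoforms add what gene sums hide. Of these, 34 were tested and edgeR called 0 in every comparison, against 0.242% of 67873 isoforms in clean air, 0.144% with formaldehyde and 0.582% over both treatments. DESeq2 on all 8 libraries called 3 member isoforms in clean air and 4 over both treatments, against 1.97% and 3.43% of all isoforms, and 0 with formaldehyde, in FA_IN against CA_IN and in the interaction, against 1.41%, 0.178% and 0.314%. JUN, JUNB and EGR1 were each counted as 1 isoform. FOS-201 held 75.01% to 87.8% of the FOS count, FOSL1-201 68.1% to 80.2%, FOSL2-201 89.8% to 96.6% and IER2-201 85.2% to 90.7%. ATF3-202 held 65.2% to 81.1% of ATF3, and KLF6-206 held 71.4% to 84.1% of KLF6, with KLF6-204 at 12.6% to 20.6%.

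MYC alone among the members had no steady main isoform. MYC-205 held 25.8% to 49.0% of its count, MYC-206 9.48% to 44.3% and MYC-202 7.54% to 37.5%. Replicates differed as much as groups: in FA_IN, MYC-206 held 44.3% in replicate 1 and 9.48% in replicate 3, while MYC-202 held 10.1% and 37.5%. The shorter ENST00000613283 held 0.438% to 7.38% in the 4 input libraries and 12.3% to 22.2% in the 4 IP libraries. For its count, the log2 difference over both treatments was 2.15 with an SE of 0.69 (edgeR adjusted p = 0.36). These shares are RSEM estimates from reads that the isoforms share.

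**Figure D5:**
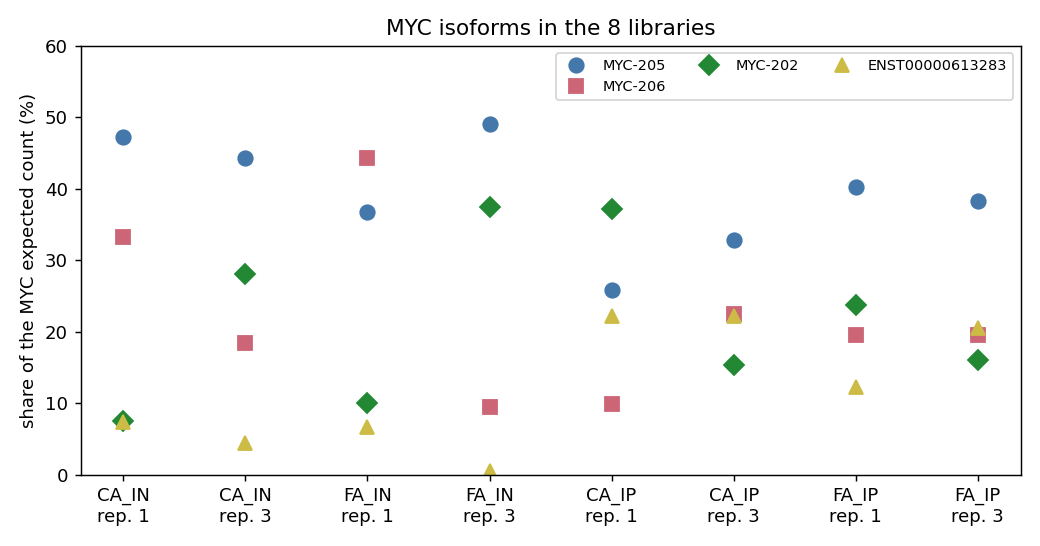
Share of the MYC expected count (vertical axis, percent) that RSEM gave to each of 4 isoforms in each of the 8 libraries (horizontal axis). MYC-206 and MYC-202 trade places between replicates, and ENST00000613283 is at most 7.38% in input and at least 12.3% in IP.

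The genes whose levels followed the mean of the centred members most closely over the 8 libraries, of 11227 genes compared, were MAP2K7, SLC2A6, SBNO2, ZC3H12A and DENND2B, with Pearson's r from 0.94 to 0.96. The mean itself was lowest in CA_IN replicate 1, at -0.18, and highest in CA_IP replicate 3, at 0.20 on the log2 scale. The likeness therefore includes differences between replicates as well as groups.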

How the data were processed

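Libraries had been made with a small RNA kit, and the authors had trimmed reads with cutadapt, aligned them to GRCh38 with STAR 2.6.0a and counted Ensembl 94 transcripts with RSEM 1.2.25, per the submitters' processing notes and the study's methods. The authors deposited RSEM expected counts per transcript, not normalized, with effective lengths. Deposited DESeq2 tables of the authors' own comparisons (log2 fold changes and p-values) were not used. The paper and the sample characteristics name 1 antibody clone, and the labels' extraction protocol names another.

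Expected counts were summed by gene and rounded. The genes tested had 10 or more counts in 2 or more libraries, and the tool was edgeR 4.0.16 (limma 3.58.1, R 4.3.3; TMM, quasi-likelihood, 1 spread over all 8 libraries, edgeR's default prior count for fold changes and 2 for log2 CPM). Benjamini-Hochberg adjustment covered all tested genes, with a limit of 0.05. Groups came from the labels and replicate numbers from the deposited names. Input and IP of 1 number were treated as 1 RNA pool, as the study's methods describe a pool split into both fractions. Deviations of replicate 1 correlated across genes with an r of 0.38 between CA_IN and CA_IP and 0.25 between FA_IN and FA_IP, and across treatments with 0.28 between CA_IN and FA_IN, 0.28 between CA_IN and FA_IP, 0.20 between FA_IN and CA_IP and 0.24 between CA_IP and FA_IP. DESeq2 1.42.0 and other alternatives are given in the closing section. Members and lists were chosen with earlier results of these data known. Named genes were all members, called genes of each list (up to 3 in each direction) or otherwise its highest and lowest, and the 5 most alike in pattern among genes with a mean count of at least 100.

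Gene names came from GENCODE 44, in which 58207 of 58735 genes were found. Sequences and guanine shares came from its canonical transcripts, the shares for 13169 tested mRNAs with a 3′UTR. The GENCODE 44 transcript of MYC, of 3721 bases, is longer than the 2366 bases counted by the authors. The guanine share, mRNA length and pentamers given for MYC therefore include bases outside the counted transcript. The study's RSEM call sets no strand option, so that counting was unstranded by default. On simulated counts for FA_IN against CA_IN over 17817 genes, the test recovered 6 of 50 changes of 0.5, 35 of 50 of 1 and 50 of 50 of 2 on the log2 scale, with 20 other calls.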

Additional observations from a re-analysis of the deposited data

How the results depend on the processing

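In the interaction, 0 members were called under its 18 alternatives. In FA_IN against CA_IN, MYC, FOSL2, JUNB and KLF6 were below 0 and ATF3 and JUN above 0 under all 19. What the replicate number marks across the treatments is not given in the labels. With it as a replicate block, edgeR called 1 member higher (ATF3) and 1 lower (MYC) in FA_IN against CA_IN, where 14 genes in all were higher and 244 lower, 3 members higher in clean air (10.6% of all genes called), and 3 higher and 1 lower over both treatments (18.2%). The RNA pool as a replicate block gave 4 higher in clean air, 2 higher and 1 lower with formaldehyde, and 4 higher and 2 lower over both. Library size in place of TMM gave 2 higher in clean air (6.34% of all genes called) and 4 over both (16.7%), DESeq2 on all 8 libraries 2 over both (6.29%), and no filter 1 over both (3.61%). For isoforms, DESeq2 gave 2 higher and 1 lower in clean air and 3 higher and 1 lower over both. With 1 library left out, the log2 difference over both ran from 0.25 to 0.40 for JUNB and from 0.18 to 0.35 for JUN. Where a comparison is left with 1 library in a group, that library is taken to vary like the others.

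The members' median in clean air was 0.15 with DESeq2 on all 8 libraries, 0.13 with DESeq2 on 4, 0.31 with library size, 0.15 with RLE, 0.13 with TMM on protein-coding genes, 0.19 with effective lengths, 0.13 without a filter and 0.13 with a mean count of at least 50. With library size it was 0.26 with formaldehyde and 0.29 over both. With 1 library left out, the median ran from 0.067 to 0.30 in clean air, from -0.22 to 0.022 in the interaction and from 0.064 to 0.19 over both.

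Signs turned in values that passed no limit in the model without a block, among them FOS in clean air, called when the pool was the block. In FA_IN against CA_IN, EGR1 was 0.00095 with DESeq2 on all 8 libraries, 0.0014 with RLE and 0.015 with the replicate block. FOSL2 was 0.11 with library size with formaldehyde, and over both treatments -0.0033 with TMM on protein-coding genes, -0.0032 with a mean count of at least 50 and -0.0082 without a filter. MYC with formaldehyde was -3.15e-05 with RLE and -0.0050 without a filter. In the interaction JUNB and KLF6 were 0.024 and 0.027 with TMM on protein-coding genes, 0.014 and 0.011 with library size, 0.021 and 0.024 with a mean count of at least 50, 0.0095 and 0.0087 without a filter, and 0.034 and 0.045 with effective lengths.

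Leaving out 1 library gave ranges that crossed 0. In FA_IN against CA_IN they were -0.011 to 0.73 for FOS, -0.31 to 0.0016 for FOSL1, -0.26 to 0.30 for EGR1 and -0.0075 to 0.15 for IER2. In clean air they were -0.11 to 0.70 for FOS, -0.43 to 0.12 for EGR1 and -0.14 to 0.46 for ATF3. With formaldehyde they were -0.15 to 0.067 for FOSL2 and -0.021 to 0.055 for MYC. Over both treatments they were -0.041 to 0.067 for FOSL2 and -0.021 to 0.28 for ATF3. In the interaction they were -0.48 to 0.32 for FOS, -0.25 to 0.083 for FOSL1, -0.26 to 0.083 for JUN, -0.15 to 0.14 for JUNB, -0.39 to 0.16 for EGR1, -0.35 to 0.23 for ATF3 and -0.073 to 0.054 for KLF6. The causes were not tested. On simulated counts and without a block, 6 of 50 changes of 0.5 in FA_IN were recovered. The simulated libraries also held larger changes, and no deviations shared between libraries of 1 replicate number. How far changes of the size seen in FA_IN against CA_IN could be detected in the real libraries was therefore not tested.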
